A study of Mus musculus with 2 samples.

Results

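The collagen genes are the 44 of 27998 genes in the count matrices whose symbol is Col, a type number, the letter a and a chain number. All 44 stood in both matrices, and no measured value was used to choose them. Single-nucleus RNA sequencing had been done on 2 libraries, ShamRT-28d and WBRT-28d, and each library came from nuclei of 2 frozen brains, whole and pooled as 1 sample. The mice were C57BL/6J (C57BL/6 in the labels), wild type and female where the study names its purchased animals, and were bought young. The WBRT-28d mice had received 10 Gy of whole-brain irradiation in 5 fractions of 2 Gy and were harvested after 28 days. The ShamRT-28d mice were mock-irradiated and harvested at the same time, and the sample labels call them untreated. With 1 library per condition and no record of which nucleus came from which mouse, no test between the conditions was possible: intervals below are exact 95% intervals that cover counting error only, and spread between mice is not in them.

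Collagens are proteins of 3 chains wound into a triple helix, which needs a glycine at every position that faces the core. Fibrillar collagens form the ropes of connective tissue, type IV collagens form the sheet-like network of basement membranes, and type VI chains form beaded filaments between cells and matrix. FACIT collagens (fibril-associated collagens with interrupted triple helices) decorate fibrils, transmembrane collagens stay anchored in the membrane of the cell that makes them, and multiplexins sit in basement membranes. In the brain, fibrous collagen is known from the meninges and the walls of large vessels, and basement membrane collagen from all vessels, the brain surface and the choroid plexus. By these groups the members were 11 fibrillar, 6 type IV, 6 type VI, 9 FACIT, 4 transmembrane and 2 multiplexin genes, 3 short-chain network genes (Col8a1, Col8a2, Col10a1) and 3 others (Col7a1, Col26a1, Col28a1).

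The members share a repeat that the symbol rule did not use. Of their 1916 inner coding exons, 24.5% were exactly 54 bases long, that is, a whole number of glycine triplets, compared with 0.444% of 157295 inner coding exons in the 21907 other protein-coding genes. Exons of 54 bases were unevenly spread: Col1a1 had 21 among 49 inner coding exons, Col25a1 4 among 35 and Col4a1 2 among 50. The following 54-base exons are shown because they carry the glycine triplet in genes described below. Each is the coding strand, 5′ to 3′, from the GENCODE transcripts on GRCm38, and the capitals mark the first 2 bases of the glycine codon, GG and any base, that opens each of the 6 triplets. Col1a1 and Col11a1 hold 7 glycine codons in their exon, and the one that opens no triplet is in lower case.
Col1a1 exon 8, chr11:94939904-94939957, plus strand: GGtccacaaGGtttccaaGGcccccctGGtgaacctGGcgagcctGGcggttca
Col1a2 exon 8, chr6:4515481-4515534, plus strand: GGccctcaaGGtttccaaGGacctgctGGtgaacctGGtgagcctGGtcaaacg
Col3a1 exon 6, chr1:45325360-45325413, plus strand: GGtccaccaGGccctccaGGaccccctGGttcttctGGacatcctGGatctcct
Col5a2 exon 6, chr1:45434892-45434945, minus strand: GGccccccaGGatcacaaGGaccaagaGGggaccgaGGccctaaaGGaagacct
Col11a1 exon 15, chr3:114108281-114108334, plus strand: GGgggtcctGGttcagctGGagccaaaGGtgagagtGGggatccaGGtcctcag
Col4a1 exon 7, chr8:11245211-11245264, minus strand: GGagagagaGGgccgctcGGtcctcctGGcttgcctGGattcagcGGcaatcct
Col25a1 exon 13, chr3:130517684-130517737, plus strand: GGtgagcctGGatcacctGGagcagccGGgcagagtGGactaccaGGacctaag

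The groups differed in how far that unit runs without a break. In 9 of the 11 fibrillar genes the longest run held 337 to 344 triplets, and in Col24a1 and Col27a1 it held 216 and 217. The 6 type IV genes carried more triplets in all (427 to 451, against 327 to 364 in the fibrillar genes) but in 22 to 27 shorter runs, the longest of 39 to 66. Col25a1, a transmembrane collagen, had 6 runs and a longest run of 40, and Col8a1 had 9 runs and no inner coding exon at all.

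**Figure D1:**
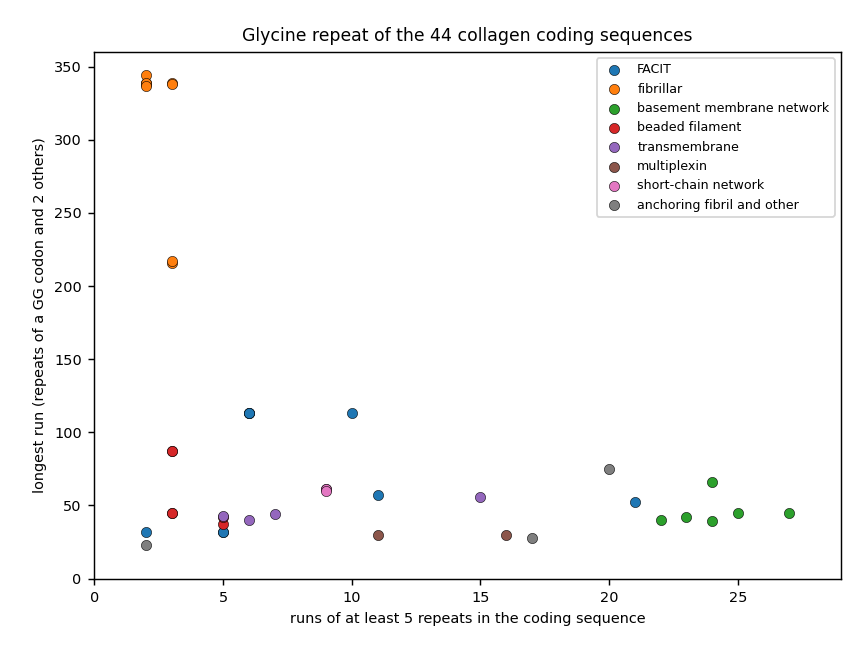
Glycine repeat of the 44 collagen coding sequences. The horizontal axis is the number of runs of at least 5 triplets and the vertical axis the longest run in triplets, 1 point per gene (some points overlie each other), coloured by structural group. The fibrillar genes stand alone at 216 triplets or more, and the type IV genes at 22 runs or more.

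Nuclei were sorted into 22 cell types by marker genes, none of them a collagen, and the types are called by these markers ("fibroblast-like"). After filters and the removal of called doublets, 10342 nuclei with 40861521 UMIs (unique molecular identifiers, 1 per captured RNA molecule) were kept in ShamRT-28d and 14043 with 56831740 in WBRT-28d, at a median of 2326 and 2491 UMIs per nucleus, and the libraries shared 43 barcode sequences. The makeup of the libraries differed: WBRT-28d held more fibroblast-like (316 against 186), mural-like (260 against 111) and endothelial-like nuclei (644 against 258). Free RNA also differed, as 10 neuron genes in fibroblast-like nuclei stood at 32.2% of the library mean in ShamRT-28d and 48.2% in WBRT-28d, and in mural-like nuclei at 24.5% and 52.9%. A level below is CPM, a gene's UMIs per 1000000 UMIs of that cell type in that library. In such sums fewer transcribing cells and less RNA per cell cannot be told apart. Because intronic reads were counted, levels of different genes were compared only per kilobase of gene. How closely UMIs follow gene length in these 3′ libraries was not tested, so an order of genes per kilobase also depends on that scaling.

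Collagen transcripts were found in every cell type, but at levels that differed widely. The members held 26410 UMIs in ShamRT-28d and 39261 in WBRT-28d, or 646 and 691 CPM. Fibroblast-like nuclei had the highest summed level, 4348 CPM in ShamRT-28d and 3700.2 in WBRT-28d, followed by choroid plexus-like nuclei at 3505 and 3048. Mural-like nuclei (pericytes and smooth muscle of vessels) had 1311 and 1334 CPM and Sst interneuron-like nuclei 1165 and 1197, while oligodendrocyte-like nuclei were lowest among the large glial groups at 149 and 214. The order of the first 2 types was the same in both libraries, with intervals that did not overlap.

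Fibroblast-like nuclei were few, so they held only 9.21% and 9.77% of all collagen UMIs. Undivided neurons, nuclei with neuron markers but no subtype call, held 27.8% and 25.5% at 516 and 614 CPM. Single nuclei showed the same contrast. A fibroblast-like nucleus had UMIs of a median of 5 different collagen genes in both libraries, and a choroid plexus-like nucleus of 5 and 4. The median was 2 in mural-like, 1 in endothelial-like and 0 in oligodendrocyte-like nuclei, at depths that were not matched. At least 1 collagen UMI was seen in 99.5% and 98.4% of fibroblast-like nuclei (93.2% and 91.4% with nuclei thinned to 1000 UMIs, 6 shallower nuclei of ShamRT-28d left out) and in 28.2% and 36.3% of oligodendrocyte-like nuclei (13.6% and 18.6% thinned).

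About 50.2% and 49.6% of collagen UMIs came from 5 genes. Col25a1 alone gave 22.2% of collagen UMIs in ShamRT-28d and 18.4% in WBRT-28d, and the other 4 were Col19a1, Col4a2, Col11a1 and Col4a1. Gene length matters here: Col25a1 spans 468 kb and Col19a1 326 kb, and per kilobase over all kept nuclei the highest level belonged to Col6a1, a type VI chain of a 17.4 kb gene, at 1.20 and 0.901 CPM per kb, against 0.306 and 0.272 for Col25a1. At the other end, Col10a1 (29 UMIs in both libraries together) and Col17a1 (38) stayed under the minimum of 50 UMIs used for single genes. The other 42 members are described below.

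**Figure D2:**
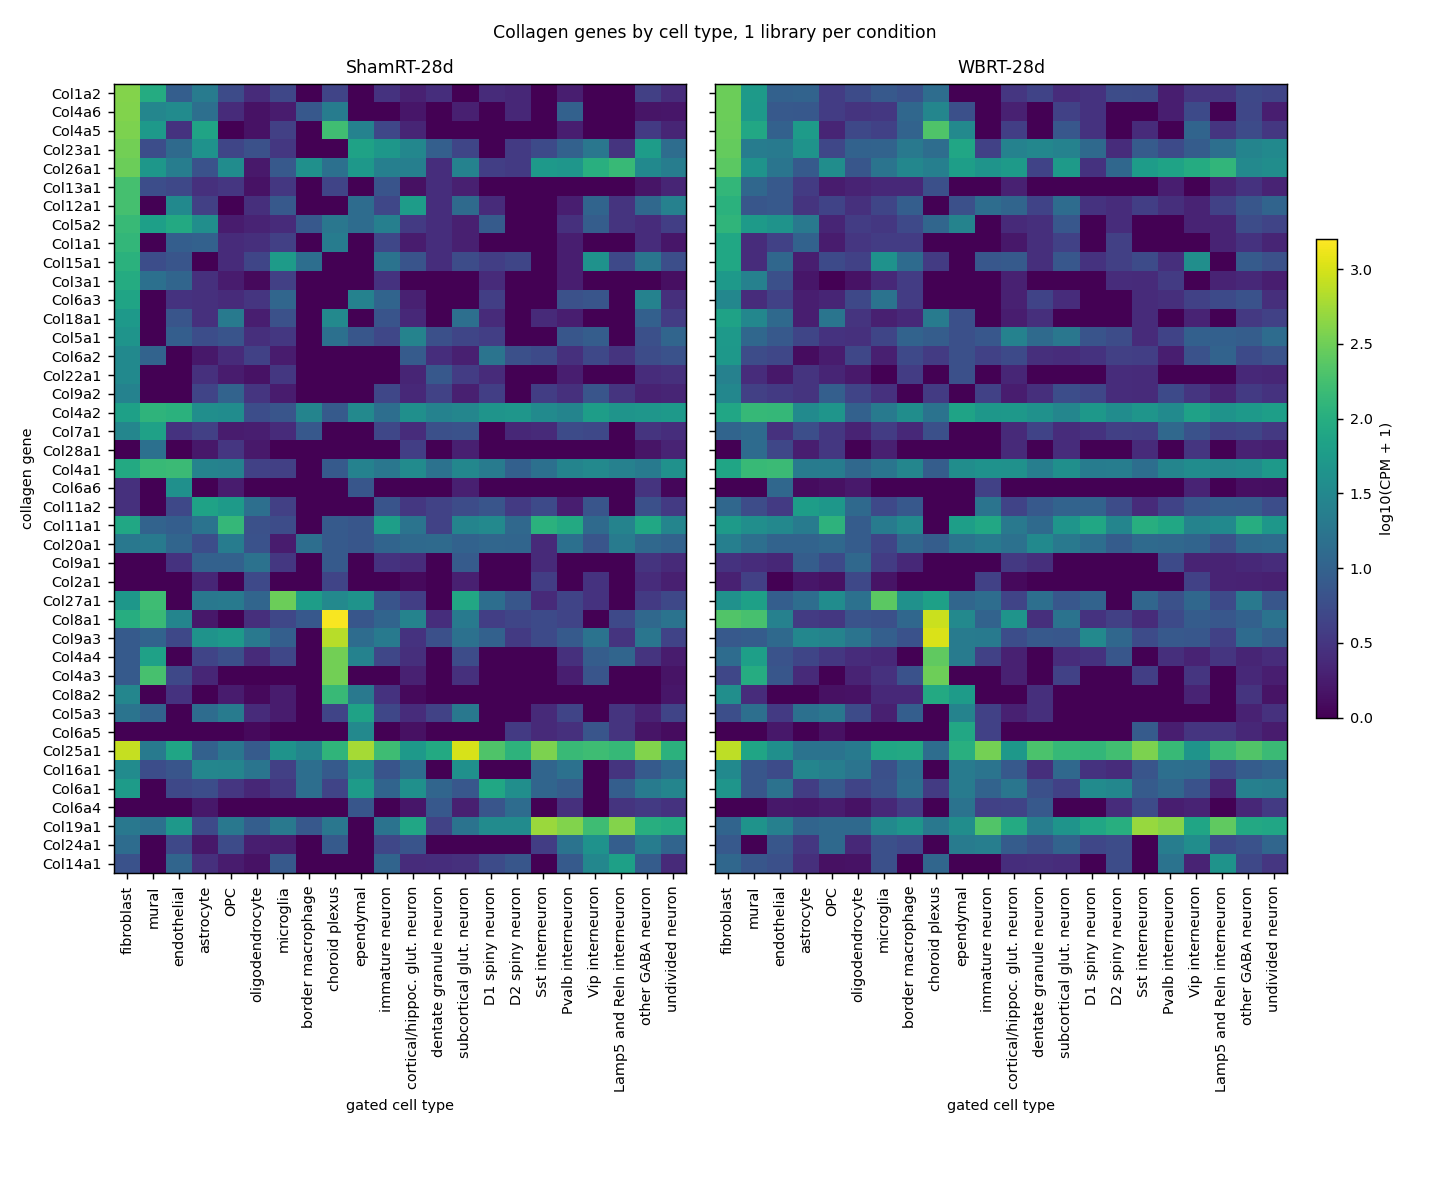
Level of the 42 collagen genes with at least 50 UMIs in 22 gated cell types, as log10(CPM + 1), left ShamRT-28d and right WBRT-28d. Each row is a gene and each column a cell type. The first column is bright over the first 17 rows, the genes highest in fibroblast-like nuclei, and the choroid plexus column stands out for Col8a1, Col9a3, Col4a3 and Col4a4.

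The cell type with the highest level was the same in both libraries for 37 of the 42 genes. It was fibroblast-like for 17 of them, choroid plexus-like for 5, mural-like for 3, endothelial-like, ependymal-like and oligodendrocyte-like for 2 each, and 1 other type for each of the remaining 6. For 16 genes the lead was also clear, meaning that the interval of the first type did not overlap that of the second in either library: 10 fibroblast-like, 4 choroid plexus-like, and Col19a1 and Col27a1 in Sst interneuron-like and microglia-like nuclei. Col16a1, Col20a1, Col25a1, Col6a1 and Col6a4 had another leading type in each library. As a description across the 22 types, which share libraries and differ in depth, the levels of a gene in one library and in the other correlated with Pearson's r from 0.25 (Col2a1, 101 UMIs in all) to 0.93 (Col26a1), with a median of 0.69.

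Among the fibrillar genes, Col1a1, Col1a2, Col3a1, Col5a1 and Col5a2 were highest in fibroblast-like nuclei. Col1a2, a chain of type I collagen, stood at 406 CPM in ShamRT-28d and 302 in WBRT-28d, against 90.9 and 54.9 in mural-like nuclei, the next type. Its partner chain Col1a1 had 132 and 80.1 CPM, and Col3a1, which makes the type III fibrils of soft tissue, had 92.9 and 53.1. A UMI of Col1a2 was seen in 60.2% and 54.7% of fibroblast-like nuclei and in 0.334% and 1.14% of oligodendrocyte-like nuclei, and the free RNA estimate predicted only 0.887% and 2.06% of the fibroblast-like level. Col5a2, whose type V chain is known to set fibril width, had 141 and 123 CPM there and was also found in endothelial-like nuclei at 87.2 and 43.4.

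Col5a1, another type V chain, had 44.7 and 53.1 CPM in fibroblast-like nuclei. The remaining fibrillar genes were highest elsewhere. Col11a1 led in OPC-like nuclei (oligodendrocyte progenitors) at 133 and 118 CPM, followed closely by Sst interneuron-like nuclei at 109 and 101, with overlapping intervals. Its relative Col11a2 led in astrocyte-like nuclei at 69.4 and 58.7 CPM, ahead of OPC-like nuclei at 54.2 and 47.9. Col27a1 had the clearest lead of this group, with 303 and 249.9 CPM in microglia-like nuclei, a UMI in 43.1% and 44.2% of them, and 2.50% and 2.89% of oligodendrocyte-like nuclei. Thinned to equal depth, the shares of Col27a1 in microglia-like nuclei were 27.3% and 24.01%. Col24a1 was highest in Vip interneuron-like nuclei at 41.4 and 36.3 CPM, Col5a3 in ependymal-like nuclei at 68.5 and 25.6 from 11 and 5 UMIs, and Col2a1, the cartilage collagen, did not exceed 4.07 and 4.01 CPM in oligodendrocyte-like nuclei.

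The 6 type IV genes lie in head-to-head pairs, and the pairs differed in the cell types where they were highest. Some types, among them mural-like and choroid plexus-like nuclei, held genes of different pairs at high levels. Col4a1 and Col4a2, the chains of nearly all basement membranes, had 151 and 149 CPM (Col4a1) and 111 and 134 CPM (Col4a2) in endothelial-like nuclei, and 144 and 142 (Col4a1) and 119.6 and 139 (Col4a2) in mural-like nuclei, with overlapping intervals between these types. Col4a2 was found in all 22 types in both libraries and Col4a1 in 21 in ShamRT-28d and 22 in WBRT-28d, with 40.1 and 51.2 CPM of Col4a1 in undivided neurons. Col4a3 and Col4a4, known from the kidney filter and other specialised membranes, had equal counts of 93 UMIs in choroid plexus-like nuclei of ShamRT-28d (325 CPM each) and 308 and 261 CPM in WBRT-28d. Mural-like nuclei came next with 187 and 94.6 CPM of Col4a3 and 67.0 and 62.5 of Col4a4. Col4a5 and Col4a6 led in fibroblast-like nuclei at 365 and 295 CPM (Col4a5) and 395 and 303 CPM (Col4a6). In choroid plexus-like nuclei Col4a5 had 164 and 205 CPM, or 0.768 and 0.959 CPM per kb of gene, and Col4a6 20.97 and 28.2 CPM, or 0.0679 and 0.0913 CPM per kb. In astrocyte-like nuclei Col4a5 had 0.341 and 0.265 CPM per kb and Col4a6 0.0446 and 0.0212. Per kilobase the intervals of these partners did not overlap in either type or library.

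**Figure D3:**
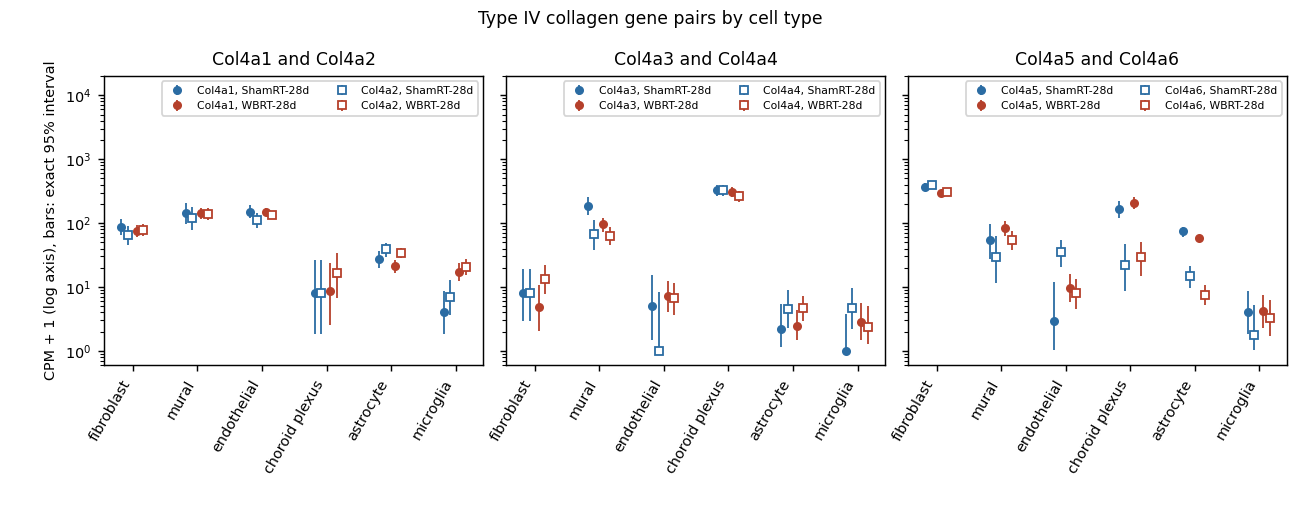
Level of the 3 head-to-head pairs of type IV genes in 6 cell types, as CPM + 1 on a log axis, with exact 95% intervals; filled circles are the first gene of a pair, open squares the second, blue ShamRT-28d and red WBRT-28d. Each gene is to be read across cell types, since levels are not divided by gene length here: Col4a3 and Col4a4 are highest in choroid plexus nuclei, and Col4a5 and Col4a6 in fibroblast nuclei, in both libraries.

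The partners of a pair tracked each other across the 22 types. Pearson's r of log2(CPM + 1) was 0.73 and 0.86 for Col4a1 and Col4a2, 0.76 and 0.71 for Col4a3 and Col4a4, and 0.72 and 0.91 for Col4a5 and Col4a6. Neighbours elsewhere did so to different degrees: Col3a1 and Col5a2, whose ends face each other 24614 bases apart, had 0.75 and 0.63, whereas Col9a1 and Col19a1, 9205 bases apart, had -0.19 and -0.42. The chain partners Col1a1 and Col1a2, on different chromosomes, had 0.70 and 0.75. These are descriptions, and types with few nuclei enter with the same weight as large ones.

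The start regions of these pairs are short, and are shown because 2 genes are read outward from each. Sequences are RefSeq promoter windows on GRCm38.p6, limited to bases that no exon covers, and written 5′ to 3′ on the strand given. Col4a1 and Col4a2 overlap by 22 bases, which left no such run. The 71 bases between Col4a3 and Col4a4 are the whole gap between the genes and hold none of the 3 motifs searched on both strands, which were the CCAAT box, the TATA box TATAAA and the GC box GGGCGG. In Col4a5 the capitals mark its single CCAAT, and in Col4a6 the single GGGCGG, read on the other strand as CCGCCC. The gap between Col4a5 and Col4a6 is 1308 bases.
Col4a3 and Col4a4, chr1:82586850-82586920, minus strand: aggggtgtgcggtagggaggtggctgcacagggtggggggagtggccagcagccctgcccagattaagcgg
Col4a5, chrX:141475169-141475384, plus strand: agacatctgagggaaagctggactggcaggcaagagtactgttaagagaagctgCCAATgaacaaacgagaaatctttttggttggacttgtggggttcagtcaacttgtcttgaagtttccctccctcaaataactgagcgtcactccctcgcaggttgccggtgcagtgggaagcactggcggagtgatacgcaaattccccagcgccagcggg
Col4a6, chrX:141474077-141474326, minus strand: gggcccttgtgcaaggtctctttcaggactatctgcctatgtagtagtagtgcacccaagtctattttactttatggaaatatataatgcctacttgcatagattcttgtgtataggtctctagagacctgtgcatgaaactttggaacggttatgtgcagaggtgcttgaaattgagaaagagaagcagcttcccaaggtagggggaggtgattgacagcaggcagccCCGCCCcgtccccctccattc

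Windows of the 250 bases before the start were found for 35 of the 44 genes, 38 windows in all. Of these, 57.9% held GGGCGG, 34.2% CCAAT and 13.2% TATAAA, against 32.7%, 33.8% and 12.4% of all 32851 windows. A match is a run of letters and not a tested binding site.

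Most fibroblast-like nuclei fell into a pair of clusters that were made without collagen genes, and these clusters differed in the collagens they transcribed. A few nuclei lay outside both. Cluster 2 held 131 of the 186 fibroblast-like nuclei of ShamRT-28d (70.4%) and 190 of the 316 of WBRT-28d (60.1%), and was high in Dcn, the small proteoglycan decorin that binds fibrils (719 and 591 CPM against 40.7 and 44.4). Cluster 36 held 48 (25.8%) and 107 (33.9%) and was high in the fibroblast markers Bnc2, a zinc finger factor (2553 and 3003.5 CPM against 83.0 and 44.7), and Slc47a1, an exporter of organic cations (954 and 879.7 against 9.22 and 6.38). Of the 24 collagen genes with at least 50 UMIs in these clusters, 12 were higher in cluster 2 in both libraries beyond counting error, where 8.24% of 5245 genes were, 3 were higher in cluster 36, where 6.5% were, and 9 were neither. The clusters had been made from those other genes, and the nuclei of a cluster are not replicates.

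Among the 12 genes higher in cluster 2 were chains of fibrils and of basement membranes. Col4a6 had 661 and 613 CPM in cluster 2 and 29.1 and 32.6 in cluster 36, Col1a2 had 590.2 and 462 against 157 and 243, and Col15a1, a multiplexin, had 184 and 151 against 0 UMIs and 5.92 CPM. The 0 of Col15a1 in cluster 36 of ShamRT-28d comes from 48 nuclei, and its exact interval reaches 21.5 CPM. Cluster 36 in contrast was marked by Col25a1, the transmembrane collagen first known from amyloid plaques, with 2571 and 2150.4 CPM against 30.7 and 70.2. The short-chain genes also leaned to cluster 36, Col8a2 with 69.8 and 85.9 CPM against 9.22 and 19.1, and Col8a1 with 221 and 284 against 46.1 and 185. Over all fibroblast-like nuclei Col25a1 therefore had a high mean level (836 and 769.9 CPM) from a minority of nuclei, as a UMI of it was seen in only 15.6% and 23.7% of them. Both clusters held a like sum of collagen RNA, 4798 and 4564 CPM in cluster 2 and 4665 and 4153 in cluster 36. Over all fibroblast-like nuclei, with the few outside these clusters, the sum was lower, 4348 and 3700.2 CPM.

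**Figure D4:**
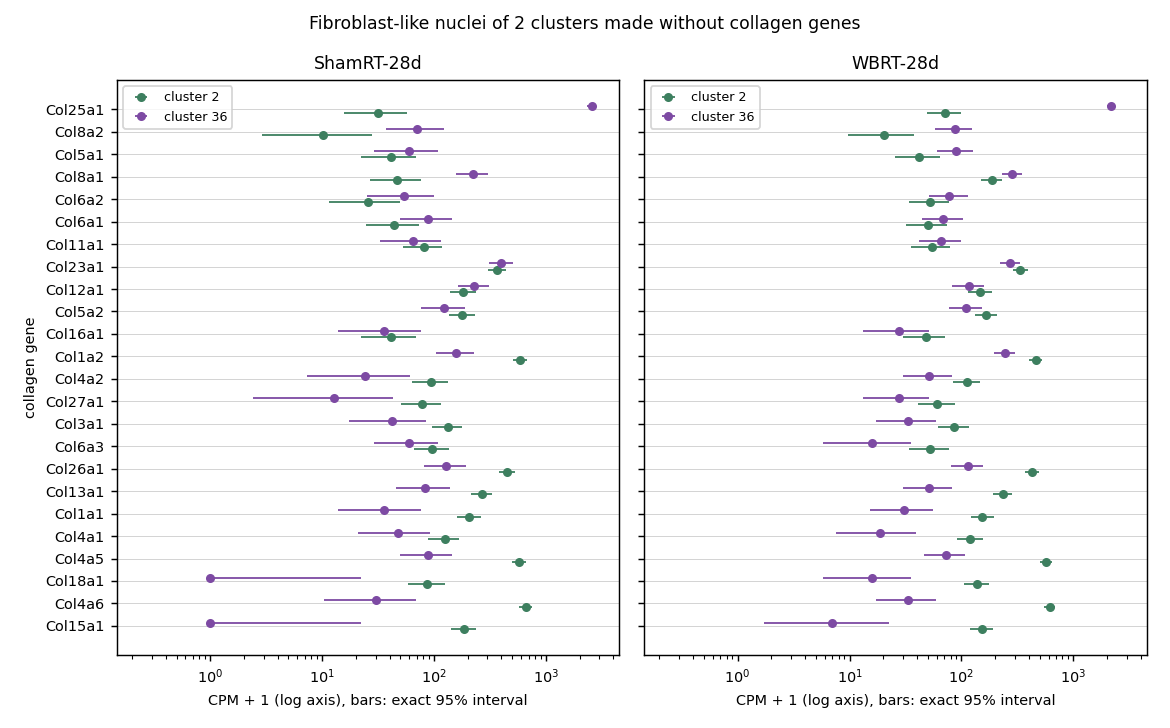
Level of 24 collagen genes in the fibroblast-like nuclei of cluster 2 (green) and cluster 36 (purple), as CPM + 1 on a log axis with exact 95% intervals, left ShamRT-28d and right WBRT-28d. Genes are ordered by the ratio of the clusters in WBRT-28d; Col25a1 at the top is highest in cluster 36 and Col15a1, Col4a6 and Col18a1 at the bottom are highest in cluster 2, in both libraries.

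Choroid plexus-like nuclei, from the epithelium that makes cerebrospinal fluid, had a collagen profile of their own. Col8a1, whose short chains build the hexagonal lattices known under endothelia, had 1464 CPM in ShamRT-28d and 866 in WBRT-28d, with a UMI in 79.2% and 69.3% of nuclei. Col9a3, a FACIT chain known from cartilage, had 723 and 1048 CPM, and 73.6% and 81.8% of nuclei held a UMI of it. Per kilobase, Col9a3 in these nuclei had the highest level of any collagen gene in any leading type, 29.6 and 43.0 CPM per kb, ahead of Col8a1 at 11.2 and 6.64 and of Col1a2 in fibroblast-like nuclei at 11.04 and 8.22. The other type IX chains were hardly seen there, with 2 and 0 UMIs of Col9a1 and 0 and 1 of Col9a2. The end of Col9a3 overlaps the gene Tcfl5 on the opposite strand over 234 bases.

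In neurons some collagens differed in level between subtypes, and only Col19a1 had a clear lead in a neuron type in both libraries. Col19a1, a FACIT member known to act at synapses, was highest in Sst interneuron-like nuclei at 528 and 509.8 CPM, and had 396 and 416 in Pvalb interneuron-like nuclei, with a UMI in 55.3% and 47.9% of Sst interneuron-like nuclei and in 1.17% and 2.27% of oligodendrocyte-like nuclei. In Lamp5 and Reln interneuron-like nuclei it had 398 and 262 CPM, so the second type differed between the libraries. By contrast it had only 4.19 and 9.69 CPM in astrocyte-like nuclei, from 7 and 34 UMIs, below the 10.5 and 13.1 CPM that the free RNA estimate predicted. Its share of astrocyte-like nuclei, 0.977% and 2.19%, was also not above that of oligodendrocyte-like nuclei.

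Other genes were also found in neurons, some of them at higher levels outside neurons. Col14a1, a FACIT member, led in Lamp5 and Reln interneuron-like nuclei with 64.6 and 42.4 CPM, and Col26a1, second to its fibroblast-like level of 304 and 248, had 141 and 127 CPM in the same interneurons. Col25a1 had UMIs in all 22 types, with 369 and 373 CPM in Sst interneuron-like nuclei. In several types outside neurons, free RNA predicted most or more than all of its level, as given below. Col6a1 was highest in D1 spiny neuron-like nuclei of ShamRT-28d (79.8 CPM) but in fibroblast-like nuclei of WBRT-28d (46.3 CPM). Col23a1, a transmembrane collagen, combined 332 and 274 CPM in fibroblast-like nuclei with 57.2 and 26.9 in other GABA neuron-like nuclei.

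The remaining members were low or held by small groups. Among the type VI genes, Col6a3 led in fibroblast-like nuclei with 73.3 and 28.9 CPM and Col6a2 with 32.2 and 50.2, Col6a6 in endothelial-like nuclei with 39.6 and 10.7 from 20 and 17 UMIs, and Col6a5 in ependymal-like nuclei with 31.2 and 82.0 from 5 and 16. Col12a1, a FACIT member of tendon-like tissue, had 179 and 109 CPM in fibroblast-like nuclei, and Col13a1, a transmembrane collagen known from the nerve-muscle junction, had 180.5 and 130.3. Col18a1, the source of endostatin, had 51.8 and 68.5 CPM in fibroblast-like nuclei. Col7a1, the anchoring fibril chain of skin, had 67.0 and 12.2 CPM in mural-like nuclei from 14 and 8 UMIs. Col9a1 led in oligodendrocyte-like nuclei at only 14.98 and 11.1 CPM, and Col28a1 in mural-like nuclei at 14.4 and 12.2 CPM from 3 and 8 UMIs.

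The study asked what irradiation does to the cells of the brain, and the comparison of the libraries gave small differences for the collagens as a whole. Over all kept nuclei the summed level in WBRT-28d was 1.07 times that of ShamRT-28d (1.05 to 1.09). A gene was counted as higher or lower when its CPM differed by at least 1.5-fold and it had at least 50 UMIs over both libraries. Of the 42 members, 2 were higher in WBRT-28d, Col11a1 and Col6a5, where 4.87% of 16890 genes were, and 1 was lower, Col12a1, where 7.34% of all genes were. The members' median log2 ratio was 0.13, beside -0.01 over all genes measured. When the cell types of WBRT-28d were weighted to the mix of ShamRT-28d, the summed ratio was 0.996.

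By structural group, the summed ratio was 1.30 (1.25 to 1.35) for type IV and 1.26 (1.22 to 1.31) for fibrillar genes, and 0.901 (0.871 to 0.931) for FACIT and 0.829 (0.770 to 0.892) for type VI genes. The type IV value rested mainly on Col4a1 with 1258 and 2333 UMIs, a ratio of 1.33 (1.24 to 1.43), and on Col4a2 with 1586 and 2893 UMIs, a ratio of 1.31 (1.23 to 1.40). With the ShamRT-28d mix these became 1.25 and 1.23, and within endothelial-like nuclei they were 0.989 (0.760 to 1.30) and 1.21 (0.895 to 1.65). In undivided neurons, which held 45.2% and 35.7% of Col4a1 UMIs, the ratio of Col4a1 was 1.28 (1.15 to 1.42). Single genes also weighed on the other groups. Among fibrillar UMIs, Col11a1 held 1254 of 4442 (ShamRT-28d) and 2797 of 7808 (WBRT-28d), with a CPM ratio of 1.60. Col12a1 held 891 of 6277 and 524 of 7863 FACIT UMIs, with a ratio of 0.423. Col6a1 held 849 of 1361 and 890 of 1569 type VI UMIs, with a ratio of 0.754. Ratios without these genes were not computed, so a shift shared by a whole group cannot be read from these values.

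The differences of Col11a1 and Col12a1 lay partly in single clusters of neurons. Col11a1 had 1254 and 2797 UMIs, a ratio of 1.60 (1.4998 to 1.72). Cluster 19, named other GABA neuron-like, held 16 nuclei in ShamRT-28d but 208 in WBRT-28d, with 696 and 633 CPM of Col11a1 and 4.55% and 21.1% of its UMIs. Without this cluster the ratio was 1.34 (1.25 to 1.44). Other clusters differed within themselves: cluster 22 (401 and 1082 nuclei) had 41 and 407 UMIs of Col11a1, a ratio of 4.79 (3.47 to 6.77), and cluster 21 (42 and 306 nuclei) had 4 and 277 UMIs, a ratio of 4.42 (1.71 to 16.3). Col12a1 had 891 and 524 UMIs, a ratio of 0.423 (0.379 to 0.472). Cluster 10, named cortical and hippocampal glutamatergic neuron-like, held 388 and 144 nuclei and 53.2% and 5.73% of its UMIs. Without it the ratio was 0.784 (0.687 to 0.895). Col12a1 differed within the cluster too, with 117 CPM in ShamRT-28d and 24.9 in WBRT-28d, a ratio of 0.213. Cluster 27, with 133 nuclei in ShamRT-28d and 2 in WBRT-28d, carried 1061 CPM of Col25a1 in ShamRT-28d, and without it the ratio of Col25a1 went from 0.887 to 0.993 (0.958 to 1.03). The cluster makeup of the libraries and the condition cannot be told apart. Col6a5 rested on 23 and 55 UMIs, with an interval of 1.04 to 2.93.

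**Figure D5:**
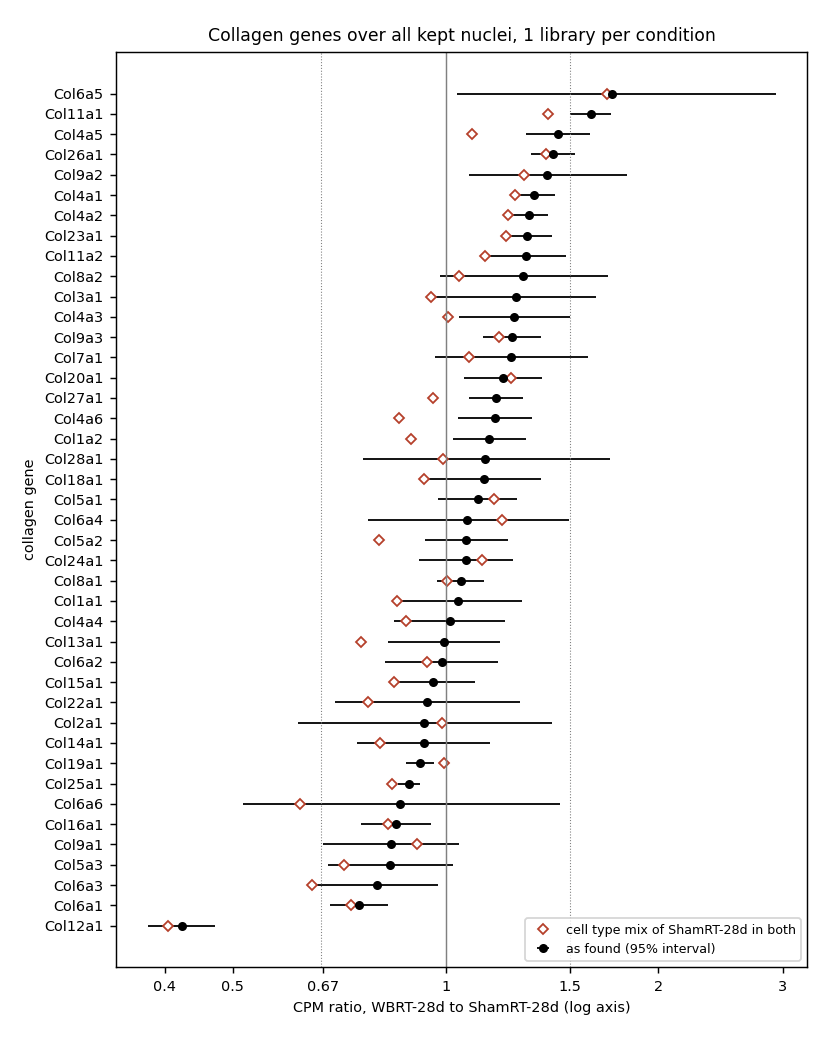
Ratio of CPM in WBRT-28d to ShamRT-28d over all kept nuclei for the 42 measured collagen genes, on a log axis. Black points with bars are the ratio as found with its 95% counting interval, open red diamonds the ratio with the cell type mix of ShamRT-28d in both libraries, and dotted lines the 1.5-fold limits; Col11a1 at 1.60 and Col6a5 at 1.72 lie above them and Col12a1 at 0.423 below.

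In fibroblast-like nuclei most collagen levels were lower in WBRT-28d, by a modest amount that depended on how nuclei were counted. The summed level was 0.851 times that of ShamRT-28d (0.809 to 0.896), but 0.962 with doublets called after the filters, 0.948 with cell types taken from clusters, 0.951 (0.891 to 1.02) within cluster 2 and 0.8903 (0.816 to 0.972) within cluster 36. Of the 24 members measured here, 2 were higher, Col6a2 and Col8a1, and 4 lower, Col1a1, Col3a1, Col6a3 and Col12a1, where 10.1% of 6051 genes were higher and 7.57% lower. The members' median log2 ratio was -0.27, beside 0.00 over those genes. The members lower numbered 2 with doublets called after the filters and 1 with cell types from clusters. Cluster 2, where Col1a1, Col1a2 and Col3a1 were highest, held 70.4% of the fibroblast-like nuclei in ShamRT-28d and 60.1% in WBRT-28d. The part of this shift in the ratios was not tested beyond the values within clusters. The summed ratio of 0.851 lay below the values within both clusters. It also covers the nuclei outside these clusters. Over all fibroblast-like nuclei the sum was 4348 and 3700.2 CPM, which is below both clusters in each library. Cluster 2 had 4798 and 4564 CPM, and cluster 36 had 4665 and 4153. The nuclei outside therefore had lower collagen levels in both libraries. They were few in number, but sums weigh nuclei by their UMIs. A ratio without them was not computed.

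Single genes in fibroblast-like nuclei differed in size and direction. Col3a1 went from 52 UMIs and 92.9 CPM to 55 UMIs and 53.1 CPM, a ratio of 0.571 (0.384 to 0.851), and 0.644 (0.408 to 1.01) within cluster 2. Col1a1 had a ratio of 0.606 (0.437 to 0.840), and 0.744 (0.526 to 1.05) within cluster 2. Col1a2 had 0.744 (0.626 to 0.887) over all fibroblast-like nuclei, 0.782 (0.641 to 0.955) within cluster 2 and 1.55 (0.9905 to 2.49) within cluster 36, a difference between the clusters that was not tested. Col6a3 had 0.395 (0.238 to 0.648), and 0.536 (0.301 to 0.943) within cluster 2. Col8a1 went the other way, from 55 to 219 UMIs, a ratio of 2.15 (1.59 to 2.94), with 4.01 (2.31 to 7.48) within cluster 2 and 1.29 (0.875 to 1.93) within cluster 36. Only 11.8% and 13.9% of fibroblast-like nuclei held a UMI of Col8a1.

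In the nuclei of the vessel wall the summed collagen level differed little between the libraries. The summed ratio was 1.02 (0.887 to 1.17) in mural-like and 0.878 (0.781 to 0.9904) in endothelial-like nuclei, and 0.988 (0.833 to 1.18) in cluster 9, which held 69.0% and 70.5% of the endothelial-like nuclei. Of 9 members measured in mural-like nuclei, Col4a5 and Col25a1 were higher and Col1a2, Col4a3 and Col27a1 lower, where 21.7% of 3622 genes were higher and 12.1% lower. With called doublets kept, the ratio of Col4a5 was 0.791, on the other side of 1. The clearest were Col4a3 at 0.507 (0.334 to 0.777) and Col27a1 at 0.415 (0.258 to 0.675), both alike within cluster 3 (0.552 and 0.512), which held most mural-like nuclei. Of 7 members in endothelial-like nuclei, Col11a1 was higher and Col5a2, Col19a1 and Col25a1 lower, where 10.6% of 6994 genes were higher and 7.13% lower. Free RNA predicted 86.6% or more of the Col11a1 level in WBRT-28d and 71.0% or more of the Col19a1 and Col25a1 levels in both libraries, and with cell types taken from clusters the ratios of these last genes were 3.14 and 3.97. Col5a2, with a prediction of 4.46% and 11.6%, had a ratio of 0.497 (0.336 to 0.743), and 0.472 (0.292 to 0.774) within cluster 9.

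In choroid plexus-like nuclei the short-chain genes Col8a1 and Col8a2 were lower in WBRT-28d. Of 6 members measured, 2 were lower, where 8.83% of 3092 genes were, and 0 were higher, where 10.6% were. Col8a1 had 419 and 338 UMIs, a ratio of 0.592 (0.511 to 0.684), and Col8a2 had 41 and 34 UMIs, a ratio of 0.608 (0.374 to 0.982). Col9a3, with 207 and 409 UMIs, had a ratio of 1.45 (1.22 to 1.72), just inside the 1.5-fold limit, and Col4a3 one of 0.946 (0.716 to 1.25). The nuclei numbered 53 and 88, with medians of 5066 and 3442 UMIs.

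In glial nuclei several of the genes past the limit were near the level that free RNA predicted. Of 13 members in astrocyte-like nuclei, Col25a1 was higher and Col1a2 and Col5a2 lower, where 6.12% of 9630 genes were higher and 7.22% lower. Free RNA predicted more than the whole level of Col25a1 in both libraries (209% and 144%), while Col5a2 had 37.7 and 18.8 CPM, a ratio of 0.499 (0.348 to 0.717), with a prediction of 3.10% and 8.96%. Of 13 members in OPC-like nuclei, Col27a1 was higher with 27 and 93 UMIs, a ratio of 1.79 (1.15 to 2.86), and Col9a3 (0.497), Col19a1 (0.623, but 1.01 with cell types from clusters) and Col20a1 (0.519) lower, where 5.3% of 8654 genes were higher and 6.02% lower. Of 12 members in oligodendrocyte-like nuclei, 4 were higher and 0 lower, where 13.1% of 10553 genes were higher and 4.84% lower, and for these 4 the free RNA estimate gave 41.3% to 185% of the level. Of 6 members in microglia-like nuclei, 4 were higher (Col4a2, Col11a1, Col19a1, Col25a1) and 0 lower, where 13.4% of 9026 genes were higher and 7.23% lower. Among these 4, Col19a1 had a ratio of 0.834 with cell types from clusters. Free RNA in microglia-like nuclei stood at 20.9% of the library mean in ShamRT-28d and 39.6% in WBRT-28d. Its part in the ratios of these 4 genes was not tested. The microglial collagen itself, Col27a1, had a ratio of 0.826 (0.725 to 0.942), and 0.974 (0.809 to 1.17) in cluster 0.

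In neurons the ratios differed between genes and between subtypes. Of 16 members measured in cortical and hippocampal glutamatergic neuron-like nuclei, 2 were higher, Col8a1 and Col26a1, and 4 lower, Col6a1, Col6a2, Col12a1 and Col16a1, where 7.22% of 10905 genes were higher and 7.24% lower. Col12a1 there had 303 and 50 UMIs, a ratio of 0.171 (0.124 to 0.231). Of 28 members in undivided neurons, 9 were higher and 2 lower, where 9.8% of 13849 genes were higher and 6.3% lower, and among them Col11a1 had 1.80 and Col23a1 2.43. Col19a1 in Sst interneuron-like nuclei, its leading type, had 0.966 (0.832 to 1.12), and of the 5 members measured in that type 0 were higher and 0 lower, where 8.34% of 4701 genes were higher and 9.74% lower. Col25a1 in subcortical glutamatergic neuron-like nuclei went from 1012 to 137 CPM, but cluster 27 gave 40 of the 130 nuclei of that gate in ShamRT-28d and 1 of the 81 in WBRT-28d.

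The smaller types held few measurable members, and Col25a1 was the most frequent among those past the limit. It was higher in border macrophage-like nuclei (1 member measured, 4 and 63 UMIs, with a free RNA prediction of 196% and 120% of the level, where 27.4% of 3800 genes were higher and 26.2% lower) and in dentate granule neuron-like nuclei (1 member, where 10.4% of 3934 genes were higher and 6.66% lower), and lower in ependymal-like nuclei (1 member, 94 and 20 UMIs, where 16.3% of 1360 genes were higher and 10.4% lower). Of 3 members in immature neuron-like nuclei Col19a1 and Col25a1 were higher, where 17.4% of 3331 genes were higher and 25.1% lower. Of 6 members in subcortical glutamatergic neuron-like nuclei Col11a1 and Col26a1 were higher and Col16a1, Col25a1 and Col27a1 lower, where 12.7% of 5492 genes were higher and 12.4% lower. Striatal neurons differed in Col19a1, which was higher in D1 spiny neuron-like nuclei (23 and 40 UMIs) and D2 spiny neuron-like nuclei (27 and 65 UMIs). Beside it, of 5 members in the D1 type Col11a1 was higher and Col6a1 and Col25a1 lower, where 11% of 3772 genes were higher and 9.6% lower, and of 3 members in the D2 type no other passed, where 11.2% of 4343 genes were higher and 9.92% lower. Among the interneurons, Col26a1 was higher in the Pvalb type (1 of 6 members, with 0 lower, where 4.4% of 6613 genes were higher and 8.5% lower). Col19a1 and Col25a1 were lower in the Vip type (2 of 6, with 0 higher, where 10.7% of 4621 genes were higher and 7.83% lower), and Col14a1 and Col19a1 in the Lamp5 and Reln type (2 of 5, with 0 higher, where 7.67% of 4743 genes were higher and 7.51% lower). Of 19 members in other GABA neuron-like nuclei 3 were higher (Col4a1, Col5a1, Col27a1) and 6 lower (Col6a3, Col12a1, Col15a1, Col23a1, Col24a1, Col25a1), where 11.3% of 11625 genes were higher and 8.81% lower.

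The genes that build and bind collagen were read from a list of 55, made with earlier results of these data known. Over all kept nuclei 51 were measured, of which 6 were higher (Serpinh1, Tll1, Itga1, Nid1, Hspg2, Fn1), where 4.87% of all genes were, and 1 lower (Itga2), where 7.34% were. Fn1, which encodes fibronectin, had 10.3 and 24.8 CPM, a ratio of 2.41 (2.16 to 2.69), but within endothelial-like nuclei, which numbered 258 and 644, it had 345 and 294 CPM, a ratio of 0.853 (0.715 to 1.02). Serpinh1, the collagen chaperone, had 4.38 and 6.58 CPM over all kept nuclei. In fibroblast-like nuclei 32 were measured, of which Fn1 and P3h2 were higher, where 10.1% of all genes were, and 6 lower, where 7.57% were. The lower ones were Pcolce, which helps to cut off the ends of fibrillar chains (0.586, 0.429 to 0.801), Loxl1, a cross-linking oxidase (0.488, 0.282 to 0.840), Itga11, a collagen receptor subunit (0.452, 0.271 to 0.749), Fmod and Lum, proteoglycans of fibrils (0.519 and 0.464), and Plod1, a lysyl hydroxylase (0.644, 0.389 to 1.07). Lum is among the fibroblast markers of the gate and was higher in cluster 2 (141 and 83.0 CPM against 0 UMIs and 8.89 CPM), so the makeup of the gate and its level cannot be told apart. In mural-like nuclei 10 were measured, of which 0 were higher, where 21.7% of all genes were, and 6 lower, where 12.1% were, among them Itga1, the type IV collagen receptor subunit (914 and 587 CPM, a ratio of 0.642, 0.539 to 0.768). In endothelial-like nuclei 0 of 20 passed in either direction, where 10.6% of all genes were higher and 7.13% lower. In astrocyte-like nuclei 2 of 30 were higher and 4 lower, where 6.12% and 7.22% of all genes were, and in OPC-like nuclei 2 of 22 were higher and 2 lower, where 5.3% and 6.02% were.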

How the data were processed

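Reads of the Chromium system were processed by the authors in Cell Ranger 5.0.0 against an mm10 reference that they had built to include introns. The deposited matrices hold raw UMI counts for each gene in each called barcode, with no normalization and no cell types. Per the submitters' processing notes, R 3.5.3 and Seurat 3.0 were among the tools. The tables were computed in Python 3.11.15 with scanpy 1.11.5, pandas 2.3.3, scipy 1.17.1 and numpy 2.4.6, and drawn with matplotlib 3.10.9. Barcodes under 500 genes or over 5% of UMIs from mitochondrial genes were dropped. Scrublet was run per library on all deposited barcodes and called 695 and 1625 doublets. Its automatic threshold was unstable in WBRT-28d (3134 calls when run after the filters), and the first run was chosen for its likeness to counts from earlier work on these data, before collagen sums were made. A nucleus was gated to a type outside neurons by at least 3 of its markers (4-fold enriched, ahead of the next type by a factor of 2). Of the nuclei left, immature neuron-like ones needed 3 markers, 4-fold enriched, and other neurons 3 general neuron markers. A neuron subtype then needed 2 markers, a key gene among them, 3-fold enriched, with less enrichment for the cortical and hippocampal type. The other GABA type needed 2 markers without enrichment. No neuron gate required a lead over the next type. Gate thresholds were adjusted on marker genes, not on collagens. Nuclei passing for several types outside neurons without that lead (190 and 421) and those passing for none (764 and 611) stayed outside the 22 types. Leiden clusters (resolution 1.5, 2000 variable genes, 30 components, 20 neighbours) were made without collagen genes.

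UMIs were summed per type and library. Intervals are exact Poisson for CPM, exact conditional binomial for ratios and Clopper-Pearson for shares. PCR duplicates are removed by UMIs, but the intervals cover counting error only. Free RNA in a type was estimated as the CPM of 10 neuron markers in percent of the library mean, times a gene's mean CPM. Ratio intervals and fold counts were checked on simulated counts. These were Poisson draws with no spread between nuclei or mice, so the check covers counting error only. The members and all gene lists were chosen with earlier results of these data known. All members with at least 50 UMIs could be named, and other genes only from the lists of markers and of collagen assembly, receptor and matrix genes. Glycine repeats were counted from GENCODE coding sequences, as no protein table was used here. Strand use in counting is not given in the sources used here, so Col9a3, Col18a1 and Col10a1, which overlap protein-coding genes on the other strand, and Col4a1 and Col4a2, which overlap each other, are uncertain to that extent. Alternatives changed the doublet calls, the gate, the cell types, the minimum of UMIs, the scaling and the depth. The sample labels name another version of the 3′ chemistry than the barcodes resemble, which was not resolved.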

Additional observations from a re-analysis of the deposited data

Results flagged for a closer look

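For 7 collagen genes the WBRT-28d to ShamRT-28d ratio lay on opposite sides of 1.5-fold in different cell types, with counting intervals on opposite sides of 1. A value counted only with at least 50 UMIs over both libraries and, outside neurons, a free RNA prediction of at most 50% of the level, and the type furthest past the limit in each direction is given. None of these differences was tested, since each condition has 1 library.

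Col19a1 had a ratio of 13.8 (6.64 to 33.4, from 8 and 67 UMIs) in immature neuron-like nuclei and of 0.476 (0.341 to 0.662) in Vip interneuron-like nuclei. Cluster 8, whose gated nuclei were mostly immature neuron-like, held 147 nuclei in ShamRT-28d but 13 in WBRT-28d, with only 3 and 1 UMIs of Col19a1. Col25a1 had 2.25 (1.60 to 3.18) in dentate granule neuron-like nuclei and 0.135 (0.108 to 0.168) in subcortical glutamatergic neuron-like nuclei. Col27a1 had 7.34 (3.08 to 22.9, from 5 and 163 UMIs) in other GABA neuron-like nuclei and 0.0773 (0.0206 to 0.205, from 90 and 4 UMIs) in subcortical glutamatergic neuron-like nuclei, and in cluster 6, which gave 63 and 27 nuclei of that gate, it had 97 and 7 UMIs. Col8a1 had 2.15 (1.59 to 2.94) in fibroblast-like nuclei and 0.592 (0.511 to 0.684) in choroid plexus-like nuclei. In undivided neurons, which have no subtype call, 3 genes were higher that were lower in another type. These were Col23a1 with 2.43 (2.05 to 2.89) against 0.470 (0.374 to 0.593) in other GABA neuron-like nuclei, Col9a3 with 2.43 (1.74 to 3.46) against 0.497 (0.351 to 0.703) in OPC-like nuclei, and Col1a2 with 2.30 (1.39 to 3.94) against 0.463 (0.278 to 0.770) in astrocyte-like nuclei.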

How the results depend on the processing

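Of 1029 values recomputed under the alternatives, 863 stayed within the limit used, 158 moved further and 8 were counted as reversed. The cause was not tested. The limit was the counting interval, except for numbers of members. These have no interval and were held to 1.5-fold, so 4 to 6 lower members in fibroblast-like nuclei (stricter gate) was within it. The 8 reversed values are ratios of single genes past 1.5-fold in the main setting. Other crossings of 1 are not in that count. With the ShamRT-28d mix, the summed ratio over all kept nuclei went from 1.07 to 0.996 and that of Col3a1 from 1.26 to 0.954. For fibroblast-like nuclei, the summed ratio of 0.851 became 0.948 with cell types from clusters, 0.928 as UMIs per nucleus, 0.962 with doublets called after the filters and 0.951 within cluster 2. The summed CPM became 4029 and 3265 with doublets kept, 4171 (WBRT-28d) with clusters, 4168 (WBRT-28d) with doublets called after the filters, and 4737 and 4137 as a mean of per-nucleus CPM. The share of collagen UMIs became 13.3% and 12.7% with clusters and 10.7% (WBRT-28d) with doublets called after the filters. The members higher numbered 1 at a minimum of 100 UMIs and 1 with doublets kept, and the members lower 1 with clusters and 2 with doublets called after the filters. Thinning to 1000 UMIs gave 93.2% and 91.4% of nuclei with a collagen UMI. Over all kept nuclei, the summed ratio of 1.07 became 1.09 as UMIs per nucleus, 1.12 thinned and 0.996 with the ShamRT-28d mix. The members higher numbered 1 at a minimum of 100 UMIs and 1 with that mix, and the members lower 3 with that mix. Among the values counted as reversed, direction changed for Col4a5 in mural-like nuclei (0.791 with doublets kept) and for Col25a1 in endothelial-like nuclei (3.97 with clusters). It also changed for Col19a1 in endothelial-like (3.14 with clusters, 1.11 thinned), OPC-like (1.01 with clusters) and microglia-like nuclei (0.834 with clusters, 0.901 thinned, 0.775 with doublets called after the filters). The doublet run after the filters, the ShamRT-28d mix and the values within or without a cluster were added after seeing the data. No paired analysis was possible because each condition has 1 library. Depth limits the small types: choroid plexus-like nuclei numbered 53 and 88, and a gene at 0 UMIs there was not detectable, not absent.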
